A study of Homo sapiens with 4 samples.

Results

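The expression of 10 genes that carry or restrain TGF-beta signaling was followed in HGC-27 cells, an established gastric carcinoma cell line, after knockdown of USP47, a deubiquitinating enzyme. The 10 genes are the ligands TGFB1, TGFB2 and TGFB3, the receptors TGFBR1, TGFBR2 and TGFBR3, the signal transducers SMAD2 and SMAD3, and the inhibitors SMAD7 and SKIL. They were chosen by symbol for their role in the pathway, and all 10 were found among the 63568 gene identifiers in the deposited files. RNA-Seq of poly(A) RNA was available from 4 libraries, 2 from cells infected with lentivirus that expressed a scrambled control shRNA and 2 from cells infected with lentivirus that expressed shRNA against USP47. Both groups carried a lentivirus, and the study's methods describe the pLKO.1 plasmid and puromycin selection of stably infected cells. The study's text speaks of several USP47 shRNAs and does not say which of them each library carries, so a difference between shRNAs and a difference between cultures cannot be told apart within that group. The series' design text describes the samples of each condition as biological duplicates. It also names a DMSO vehicle for control cells, which the sample labels do not mention.

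TGF-beta ligands are secreted in a latent form and, once released, bind the type II receptor TGFBR2, which then recruits and phosphorylates the type I receptor TGFBR1. The activated type I receptor phosphorylates SMAD2 and SMAD3, which join SMAD4, enter the nucleus and turn target genes on or off. In epithelial tumors the pathway is known both for restraining growth and for driving epithelial-to-mesenchymal transition, and SMAD7 and SKIL are among its own induced genes that hold it back.

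Total counts on genes lay between 15649899 and 20140273 per library, and 21932 genes had enough reads to be tested, among them all 10 genes of the pathway described here. Values per library are given as CPM, read counts scaled to library size after TMM normalization, which aligns the bulk of the genes between libraries. Levels are compared between genes only per length, in the deposited TPM and once in CPM per length of annotated exons. USP47 itself stood at 80.0 and 66.1 CPM in control shRNA replicates 1 and 2, and at 36.0 and 21.5 CPM in USP47 shRNA replicates 1 and 2. The knockdown libraries thus held 49.3% and 29.5% of the control mean, a log2 fold change of -1.33 (SE 0.21, adjusted p = 0.00362 by edgeR). Across all genes, log2 levels correlated at 0.993 between the control libraries, at 0.987 between the knockdown libraries and at 0.972 to 0.976 between groups. Short 7SL RNA copies and the unnamed identifier ENSG00000258486 together took between 49.6% and 52.9% of TPM in 3 libraries and 56.5% in USP47 shRNA replicate 2. In that library the least TPM was thus left for all other genes. The 7SL copies and this identifier took only 10.5% to 14.2% of the counts, on which the tests rest. Of 12 epithelial markers, 6 had a mean count under 10 and 2 (EPCAM and CLDN7) were called lower. EPCAM had counts of only 12 and 11 in control and 3 and 3 in knockdown libraries. The summed TPM of this list was 12.6 to 13.7 in control and 10.1 to 17.0 in knockdown libraries. MUC1 alone held 9.23 and 7.92 TPM of it in control and 13.65 and 7.68 TPM in knockdown libraries. Of 10 gastric epithelial markers 6 had a mean count under 10 and GKN2 was at 0. Their summed TPM was 12.3 to 12.7 in control and 11.7 to 13.3 in knockdown libraries. Of 11 markers of other cell types, 9 had a mean count under 10, INS was at 0, and the summed TPM was 4.11 to 4.72 in control and 2.40 to 4.04 in knockdown libraries. The part of these shifts in the results was not tested.

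In these cells 3 of the 10 genes rose on USP47 knockdown and none passed the test in the other direction (quasi-likelihood F test of edgeR, p-values adjusted by Benjamini-Hochberg over all 21932 genes, threshold 0.05). The risen genes belong to 3 levels of the pathway, the ligand TGFB3, the type I receptor TGFBR1 and the inhibitory SMAD7. Over all genes tested, 16.1% were called in either direction, 6.52% higher and 9.56% lower, against 30.0% of the 10 genes called in either direction. The genes and the lists below were chosen with earlier results of these data known, so their shares are descriptions. The median log2 fold change of the 10 genes was -0.03, beside -0.01 over all genes, with 4 genes above zero and 6 below. In CPM the knockdown libraries lay above both control libraries for 3 genes, below both for 2 genes and overlapped them for 5. Over all genes tested these placements were met by 29.3% above and 31.7% below, so the placements of the 10 genes alone do not set them apart. In DESeq2's Wald test, where 6.79% of the genes with an adjusted p were called higher, TGFB3, TGFBR1 and SMAD7 were called higher as well. When either control library was left out, fewer of the 10 genes and fewer of all genes were called. When either USP47 shRNA library was left out, more of all genes were called, so calls in these fits do not set the 10 genes apart. Without 1 library the log2 fold changes ranged from 0.587 to 0.759 for TGFB3, 0.345 to 0.494 for TGFBR1 and 0.553 to 0.994 for SMAD7. Those of TGFB2 ranged from -0.50 to -0.245 and those of SKIL from -0.406 to -0.0111.

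**Figure D1:**
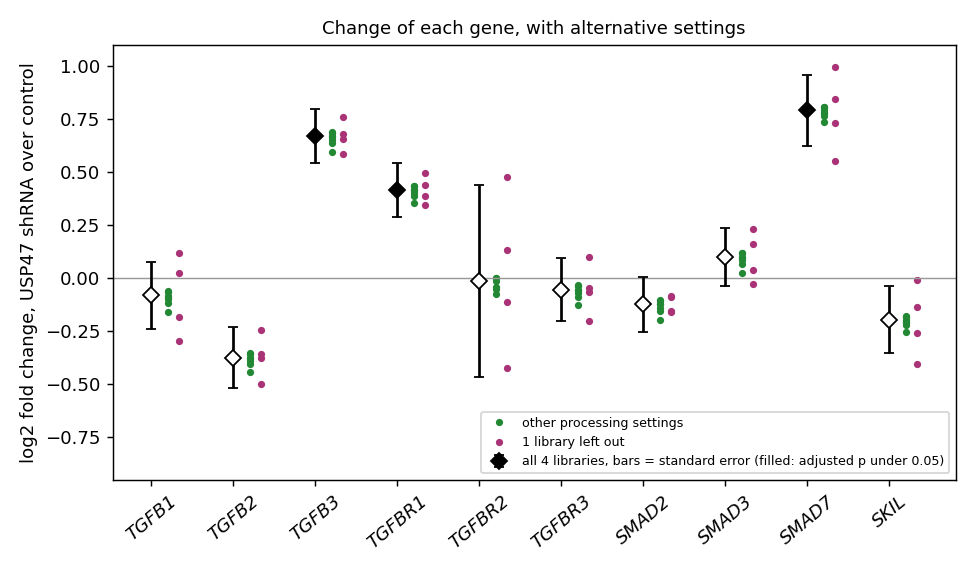
The log2 fold change of USP47 shRNA over control shRNA (vertical axis) is plotted for the 10 genes, with diamonds for the fit of all 4 libraries (bars, standard error; filled, adjusted p under 0.05), green points for other processing settings and purple points for fits without 1 library. TGFB3, TGFBR1 and SMAD7 stay above zero in every setting plotted, from 0.59 to 0.76, from 0.34 to 0.49 and from 0.55 to 0.99, while TGFB1, TGFBR2, TGFBR3 and SMAD3 fall on both sides of zero.

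The promoter windows of the 3 risen genes and of SKIL, which is compared with SMAD7 below, are printed so that the sequence at the start of each gene that rose can be read beside its values. Each window is 300 bases of the RefSeq sequence of GRCh38.p14 around the transcription start, written 5′ to 3′ on the gene's strand. Capitals mark matches on either strand to TGACG (the core of a cyclic AMP response element) or CAGAC (a SMAD-binding element), overlapping matches included.
TGFB3, chr14:75981946-75982245, minus strand: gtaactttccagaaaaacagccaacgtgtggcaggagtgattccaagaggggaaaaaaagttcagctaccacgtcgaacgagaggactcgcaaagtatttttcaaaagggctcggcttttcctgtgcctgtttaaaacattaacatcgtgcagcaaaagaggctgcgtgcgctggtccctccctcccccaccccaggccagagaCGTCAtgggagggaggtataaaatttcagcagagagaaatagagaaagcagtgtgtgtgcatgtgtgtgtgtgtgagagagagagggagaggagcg
TGFBR1, chr9:99104863-99105162, plus strand: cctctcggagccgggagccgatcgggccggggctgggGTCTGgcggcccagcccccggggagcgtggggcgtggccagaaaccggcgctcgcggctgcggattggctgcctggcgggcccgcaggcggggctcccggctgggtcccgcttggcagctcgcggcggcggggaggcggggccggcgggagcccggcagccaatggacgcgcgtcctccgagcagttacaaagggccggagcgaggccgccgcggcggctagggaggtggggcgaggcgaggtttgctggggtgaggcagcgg
SMAD7, chr18:48950916-48951215, minus strand: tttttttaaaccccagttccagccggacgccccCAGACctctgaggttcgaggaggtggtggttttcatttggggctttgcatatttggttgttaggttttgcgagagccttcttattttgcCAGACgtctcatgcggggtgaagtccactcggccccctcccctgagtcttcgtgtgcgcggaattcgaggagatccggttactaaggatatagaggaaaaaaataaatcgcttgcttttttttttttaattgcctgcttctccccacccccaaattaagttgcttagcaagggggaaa
SKIL, chr3:170357465-170357764, plus strand: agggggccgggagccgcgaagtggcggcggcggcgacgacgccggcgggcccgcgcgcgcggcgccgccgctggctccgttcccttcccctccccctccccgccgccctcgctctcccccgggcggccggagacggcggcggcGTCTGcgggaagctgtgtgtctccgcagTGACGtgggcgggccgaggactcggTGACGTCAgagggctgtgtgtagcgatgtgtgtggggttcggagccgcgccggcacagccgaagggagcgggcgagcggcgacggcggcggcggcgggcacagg
The TGFB3 window holds 1 TGACG match and no CAGAC match, the TGFBR1 window 1 CAGAC match on the opposite strand, the SMAD7 window 2 CAGAC matches and the SKIL window 3 TGACG matches and 1 CAGAC match. CAGAC occurred in 45.3% of all 35116 promoter windows and in 5 of the 10 genes' windows, and TGACG in 24.6% of all windows and in 3 of the 10. The AP-1 site TGANTCA occurred in 7.71% of all windows and in 1 of the 10, that of TGFBR2, and the palindrome GTCTAGAC in 0.202% of all windows and in none of the 10. These strings were searched on both strands, and none of them contains another. Each of the 10 genes was represented only by the window at its canonical transcript start, although SMAD7 had 3 windows, TGFBR1 8 and TGFB3 2. Matches at their other start sites are therefore not counted for these genes. GC content was 50.3% in the TGFB3 window and 48.3% in the SMAD7 window, against 78.7% in that of TGFBR1 and 79.0% in that of SKIL.

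Among the ligands, TGFB3 rose, and neither TGFB1 nor TGFB2 passed the test. TGFB3 (ENSG00000119699.3, chr14:76424440-76449354 on hg19, minus strand) stood at 45.9 and 45.4 CPM in the control libraries and at 68.4 and 76.8 CPM in USP47 shRNA replicates 1 and 2. The control libraries nearly coincided, and both knockdown libraries lay well above them. The mean went from 45.7 ± 0.362 to 72.6 ± 5.96 CPM (SD, n = 2 per group), a 1.59-fold rise (log2 fold change 0.67, SE 0.13, edgeR adjusted p = 0.00801). In a bulk sample, more RNA per cell and more cells with the RNA cannot be told apart. TGFB3 passed the test in 9 of 11 alternative settings, and its adjusted p was 0.125 without control shRNA replicate 1 and 0.104 without control shRNA replicate 2, although its log2 fold change stayed at 0.68 and 0.66. In these fits the remaining control library is assumed to vary like the knockdown libraries. TGFB3 shares its locus with the antisense genes IFT43, with a log2 fold change of -0.02, and TGFB3-AS1, with counts of 13 and 12 in control and 12 and 9 in knockdown libraries. Neither of these neighbors was called, and whether the counting used the strand is not given in the sources used here.

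TGFB1 (ENSG00000105329.5, chr19:41807492-41859827, minus strand), the ligand most widely studied in carcinoma, stood at 66.8 and 77.3 CPM in control and at 58.6 and 77.8 CPM in knockdown libraries. The groups overlapped, since USP47 shRNA replicate 1 was the lowest and replicate 2 the highest of the 4 libraries. TGFB1 had a log2 fold change of -0.08 (SE 0.16, adjusted p = 0.758 by edgeR), and it turned to 0.02 without control shRNA replicate 2 and to 0.12 without USP47 shRNA replicate 1. In deposited TPM the order was different, with 30.1 and 30.6 in control and 26.3 and 26.1 in knockdown libraries, which did not overlap. TMEM91, an antisense neighbor that overlaps TGFB1, fell by 0.60 on the log2 scale (SE 0.18, edgeR adjusted p = 0.0498), and the antisense neighbors CCDC97 and HNRNPUL1 had log2 fold changes of 0.24 and 0.20 and were not called.

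TGFB2 (ENSG00000092969.7, chr1:218518678-218617961, plus strand), the ligand that depends most on the co-receptor TGFBR3 for binding, stood at 29.1 and 24.5 CPM in control and at 20.5 and 20.8 CPM in knockdown libraries. The knockdown libraries nearly coincided below the controls, and the controls differed from each other by more than the lower control did from the knockdown libraries. The log2 fold change of -0.38 (SE 0.14) did not pass the test over all genes (edgeR adjusted p = 0.0996). It was -0.356 without USP47 shRNA replicate 1 and -0.377 without USP47 shRNA replicate 2. In these fits the remaining knockdown library is assumed to vary like the controls. The antisense transcript TGFB2-AS1 had counts of 26 and 21 in control and 26 and 26 in knockdown libraries and was not called (log2 fold change 0.21).

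In deposited TPM, the make-up of the ligand mRNAs differed between the groups more than their sum. TGFB3 made up 26.2% and 24.4% of the summed ligand TPM in control libraries and 38.7% and 35.8% in knockdown libraries. TGFB1 made up 57.9% and 63.1% in control and 50.3% and 55.0% in knockdown libraries, and TGFB2 15.9% and 12.6% against 11.1% and 9.23%. None of these shares overlapped between the groups, but they are parts of the same sum in each library and so do not vary independently. The sum of the 3 ligands was 51.9 and 48.5 TPM in control and 52.2 and 47.4 TPM in knockdown libraries, and it did overlap. Unlike the shares, this sum depends on the scaling of TPM in each library. USP47 shRNA replicate 2 had the least TPM left for other genes. TGFB3 stood to TGFB1 at 0.453 and 0.387 in control and at 0.769 and 0.651 in knockdown libraries, and to TGFB2 at 1.65 and 1.95 against 3.49 and 3.88. A ratio of TPM within a library does not depend on its scaling. These ratios and shares were chosen after their values were seen, and an exact permutation test of 2 libraries against 2 cannot go below p = 0.333, which each of them gave, whereas the summed ligand TPM gave p = 1.

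**Figure D2:**
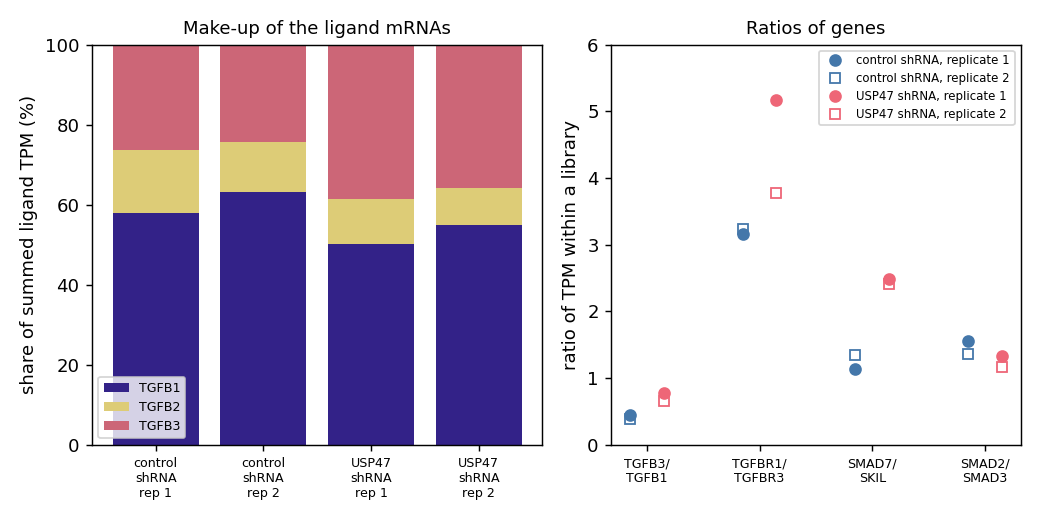
Left, the share of each ligand in the summed ligand TPM (%, stacked bars, 1 per library). Right, ratios of TPM between pairs of genes within each library, with TGFB3 over TGFB1, TGFBR1 over TGFBR3 and SMAD7 over SKIL higher and SMAD2 over SMAD3 lower in both USP47 shRNA libraries (from 1.36 and 1.55 in control to 1.17 and 1.33).

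Among the receptors, the type I receptor TGFBR1 rose, the type II receptor TGFBR2 was near the lowest level tested, and the co-receptor TGFBR3 did not pass the test. TGFBR1 (ENSG00000106799.8, chr9:101866320-101916474, plus strand), the kinase that phosphorylates SMAD2 and SMAD3, stood at 60.2 and 62.6 CPM in control and at 86.2 and 77.55 CPM in knockdown libraries. Both knockdown libraries lay above both controls in CPM. The mean went from 61.4 ± 1.70 to 81.9 ± 6.13 CPM (SD, n = 2 per group), a 1.33-fold rise (log2 fold change 0.42, SE 0.13, edgeR adjusted p = 0.0488). The call lies close to the threshold, and TGFBR1 passed in 6 of 11 alternative settings, with an adjusted p of 0.122 when libraries were scaled by their size alone, 0.484 without control shRNA replicate 1 and 0.330 without control shRNA replicate 2. In deposited TPM the groups overlapped, at 12.8 and 11.7 in control against 18.3 and 12.3 in knockdown libraries, the last value being that of USP47 shRNA replicate 2, where 7SL RNA and the unnamed identifier took the most TPM. The antisense RNA5SP290 at this locus had no read in any library.

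TGFBR2 (ENSG00000163513.13, chr3:30648093-30735634, plus strand), the receptor that binds the ligand first, had counts of 13 and 8 in control and of 11 and 9 in knockdown libraries. This is 0.237 and 0.111 TPM against 0.163 and 0.145 TPM, and the control libraries bracketed the knockdown libraries. Only 1.41% of the genes tested had a lower mean TPM in control, compared with 75.1% for TGFBR1. Its log2 fold change was -0.01 with an SE of 0.45 (edgeR adjusted p = 0.989), so at this depth a change of the size seen in TGFBR1 was not detectable. Its sign turned in 4 alternative settings, with values from -0.42 to 0.48 over all of them. DESeq2 gave it no adjusted p.

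TGFBR3 (ENSG00000069702.6, chr1:92145900-92371892, minus strand), the betaglycan co-receptor that presents ligands to TGFBR2, stood at 24.1 and 24.5 CPM in control and at 21.1 and 25.9 CPM in knockdown libraries. The knockdown libraries bracketed the controls in CPM, whereas in deposited TPM they lay below both, at 3.53 and 3.25 against 4.06 and 3.63. For TGFBR3 the log2 fold change was -0.05 (SE 0.15, edgeR adjusted p = 0.833) and turned to 0.10 without USP47 shRNA replicate 1. The TPM of TGFBR1 stood to that of TGFBR3 at 3.16 and 3.23 in control and at 5.18 and 3.78 in knockdown libraries, which did not overlap. Every ratio without overlap gives an exact permutation p of 0.333 here, so that test does not set this ratio apart.

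Among the transducers, neither SMAD2 nor SMAD3 passed the test. SMAD2 (ENSG00000175387.11, chr18:45335328-45457517, minus strand) stood at 225.5 and 215.2 CPM in control and at 197.6 and 206.7 CPM in knockdown libraries. Both knockdown libraries lay below both controls, at 89.7% and 93.8% of the control mean. SMAD2 had a log2 fold change of -0.12 (SE 0.13, edgeR adjusted p = 0.539) that stayed between -0.20 and -0.08 in 11 alternative settings. MTCO2P2 and RP11-380M21.4, which lie within the SMAD2 locus on the same strand, had log2 fold changes of -0.42 and -0.92 and were not called.

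SMAD3 (ENSG00000166949.11, chr15:67356101-67487511, plus strand), which unlike the main form of SMAD2 binds DNA directly, stood at 96.2 and 104.7 CPM in control and at 98.2 and 117.3 CPM in knockdown libraries. The groups overlapped, with USP47 shRNA replicate 2 the highest of the 4. The log2 fold change was 0.10 (SE 0.14, edgeR adjusted p = 0.651) and turned to -0.03 without USP47 shRNA replicate 2. The TPM of SMAD2 stood to that of SMAD3 at 1.55 and 1.36 in control and at 1.33 and 1.17 in knockdown libraries. These did not overlap (exact permutation p = 0.333, the value of every ratio without overlap). SMAD4, the partner that both transducers need, had counts of 1424 and 1663 in control and 1822 and 1185 in knockdown libraries, and a log2 fold change of 0.01 (SE 0.12, edgeR adjusted p = 0.958).

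Of the inhibitors, SMAD7 rose and SKIL did not pass the test. SMAD7 (ENSG00000101665.4, chr18:46446223-46477335, minus strand), which blocks the type I receptor and brings ubiquitin ligases to it, stood at 15.4 and 16.7 CPM in control and at 31.9 and 23.4 CPM in knockdown libraries. Both knockdown libraries lay above both controls, and they differed from each other far more than the controls did. The mean went from 16.0 ± 0.905 to 27.7 ± 5.99 CPM (SD, n = 2 per group), a 1.73-fold rise and the largest change among the 10 genes (log2 fold change 0.79, SE 0.17, edgeR adjusted p = 0.0128). USP47 shRNA replicate 1, with 198.9% of the control mean of SMAD7, was the library with more USP47 left, and replicate 2 had 146.1%. TGFBR1 had the same order, with 140.4% and 126.3%, and TGFB3 the opposite one, with 149.8% and 168.3%. A dependence on the USP47 left was not tested. SMAD7 passed in 9 of 11 alternative settings, with an adjusted p of 0.0563 when libraries were scaled by their size alone and 0.0939 without control shRNA replicate 1, and its log2 fold change ranged from 0.55 without USP47 shRNA replicate 1 to 0.99 without replicate 2. The annotation shows no gene that overlaps SMAD7.

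SKIL (ENSG00000136603.9, chr3:170075130-170114623, plus strand), which encodes the corepressor SnoN of SMAD complexes, stood at 28.5 and 26.2 CPM in control and at 27.0 and 20.5 CPM in knockdown libraries. USP47 shRNA replicate 1 lay between the controls and replicate 2 below them, so the groups overlapped. The log2 fold change was -0.20 (SE 0.16, edgeR adjusted p = 0.420). It was -0.41 without USP47 shRNA replicate 1 and -0.0111 without replicate 2. The TPM of SMAD7 stood to that of SKIL at 1.14 and 1.34 in control and at 2.49 and 2.41 in knockdown libraries. Although both genes differed between the knockdown libraries, the ratio in them was nearly the same. It did not overlap that of the controls (exact permutation p = 0.333, the value of every ratio without overlap). Against SMAD3, SMAD7 stood at 0.395 and 0.393 in control and at 0.801 and 0.493 in knockdown libraries.

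Per length, the 10 genes spanned a wide range of levels in control cells. In mean TPM, TGFB1 was highest at 30.3 ± 0.395 (SD, n = 2), with 91.0% of the genes tested below it. SMAD2 followed at 21.95 ± 2.698 TPM and SMAD3 at 15.1 ± 0.444 TPM. TGFB3 at 12.7 ± 1.24 TPM and TGFBR1 at 12.3 ± 0.765 TPM overlapped between their libraries. Within each control library TGFB3 was the higher, at 13.61 against 12.81 TPM in replicate 1 and 11.85 against 11.73 TPM in replicate 2. TGFB2 at 7.16 ± 1.52 TPM, SMAD7 at 5.93 ± 0.199 TPM, SKIL at 4.82 ± 0.716 TPM and TGFBR3 at 3.85 ± 0.301 TPM came next, each without overlap with its neighbor, and TGFBR2 was last at 0.174 ± 0.0892 TPM. In the knockdown TGFB3 stood second at 18.6 ± 2.28 TPM, above SMAD2 at 18.6 ± 3.20 TPM by less than their spread, and SMAD7 at 9.70 ± 3.99 TPM stood above TGFB2 at 5.08 ± 0.995 TPM. When CPM was divided by the full annotated exon length instead, SMAD2 ranked 5 in control, behind TGFB1, SMAD3, TGFB3 and TGFBR1. The annotated exons of SMAD2 add up to 36426 bases, against the 13770 bases behind the deposited values. TGFB2 and SMAD7 overlapped in the control libraries on that scale.

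**Figure D3:**
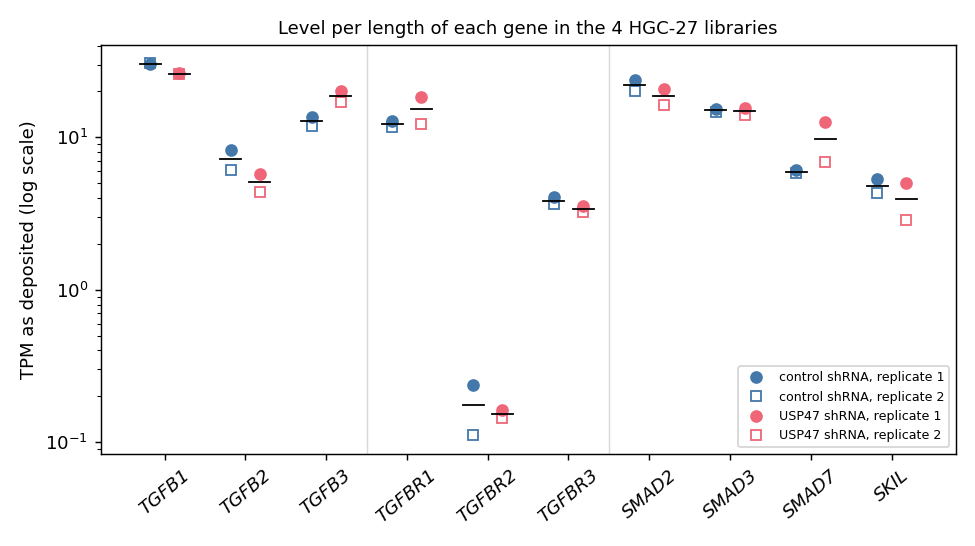
Deposited TPM (vertical log axis) of the 10 genes in each library, with circles for replicate 1, open squares for replicate 2, blue for control shRNA, red for USP47 shRNA and lines for the mean of each group. The knockdown libraries lie above both controls for TGFB3 and SMAD7 and below both for TGFB1, TGFB2 and TGFBR3. The other 5 genes overlap on this scale, and TGFBR2 lies below 0.24 TPM in every library. The share of all genes with such placements in TPM was not computed. In CPM, TGFB1 and TGFBR3 overlap, whereas TGFBR1 lies above both controls and SMAD2 below both.

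The other genes of the pathway were described by lists that hold 140 genes together, of which 118 were tested, 11 were called higher and 18 lower, or 24.6% called beside the 16.1% over all genes. Of the 16 tested genes of ligand latency and activation, 18.8% were called, near the 16.1% over all genes. None was called higher and 3 were called lower. These were LTBP4, which binds the latent complex (log2 fold change -0.83, SE 0.14, edgeR adjusted p = 0.00507), the integrin ITGB8 (-0.77, SE 0.20, adjusted p = 0.0298) and thrombospondin 1, THBS1 (-0.64, SE 0.13, adjusted p = 0.0107), of which ITGB8 and THBS1 are known to release active ligand. LTBP1, the main tether of latent TGFB1, had a log2 fold change of -0.11 (adjusted p = 0.668). This list had fewer calls without control shRNA replicate 1, as did all genes tested. It had more when either USP47 shRNA library was left out, and so did all genes tested.

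Among 16 tested co-receptors and SMAD cofactors 3 were called, or 18.8%, near the 16.1% over all genes. The acetyltransferase gene CREBBP rose by 0.49 on the log2 scale (edgeR adjusted p = 0.0381), while CBFB, the partner of RUNX factors, fell by 0.51 (adjusted p = 0.0221) and TGFB1I1, a focal adhesion adaptor, fell by 0.70 (adjusted p = 0.0298). The co-receptor ENG had a log2 fold change of 0.14 and was not called. Of 19 tested inhibitors other than SMAD7 and SKIL, 2 were called higher and none lower, or 10.5%, below the 16.1% over all genes, and the median change was 0.18 on the log2 scale, beside -0.01 over all genes. The risen inhibitors were VASN, a cell-surface protein that traps TGF-beta (0.83, SE 0.14, edgeR adjusted p = 0.00415), and SKI, the corepressor related to SKIL (0.49, SE 0.15, adjusted p = 0.0483). SMAD6, the inhibitory SMAD closest to SMAD7, had counts of 488 and 645 in control and 882 and 479 in knockdown libraries and was not called (0.30, adjusted p = 0.202). Cofactors and inhibitors both had fewer calls when either control library was left out, as did all genes tested. Both had more when either USP47 shRNA library was left out, and so did all genes tested.

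Of 7 deubiquitinases known to act on the pathway, CYLD rose by 0.58 on the log2 scale (edgeR adjusted p = 0.0180), USP9X, which acts on SMAD4, fell by 0.51 (adjusted p = 0.0277), and 5 were not called. The called share of this list was 28.6%, beside 16.1% over all genes. In the activin and nodal branch, which also signals through SMAD2 and SMAD3, 10 of 20 genes were tested and 3 called, or 30.0% beside the same 16.1%. The receptor ACVR2B rose by 0.66 (edgeR adjusted p = 0.0102), and the subunit genes INHBB and INHBE fell by 1.40 (adjusted p = 0.0102) and 0.97 (adjusted p = 0.0235). Of 12 genes of TAK1 and other non-SMAD arms, MAP3K7, which encodes TAK1, fell by 0.61 (edgeR adjusted p = 0.0153) and 11 were not called, a called share of 8.33%, below that over all genes. Deubiquitinases and non-SMAD arms both had fewer calls when either control library was left out, as did all genes tested. The non-SMAD arms had more when either USP47 shRNA library was left out, and so did all genes tested.

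Genes that TGF-beta is known to induce moved in both directions. Of 36 tested, 4 were called higher and 9 lower, 36.1% in all, beside 6.52% higher, 9.56% lower and 16.1% in all over all genes. The median change of the list was -0.19 on the log2 scale, beside -0.01 over all genes. The risen targets with the smallest p were JUNB, an AP-1 subunit (0.92, SE 0.15, edgeR adjusted p = 0.00427), the collagen gene COL5A1 (0.88, SE 0.15, adjusted p = 0.00479) and TAGLN, an actin-binding protein (0.83, SE 0.18, adjusted p = 0.0148). The fallen targets with the smallest p were the fibronectin gene FN1 (-1.34, SE 0.14, edgeR adjusted p = 0.000602), the metalloprotease ADAM19 (-2.89, SE 0.33, adjusted p = 0.00077) and the hyaluronan synthase HAS2 (-1.49, SE 0.18, adjusted p = 0.000941). FN1 is among the genes that the study itself followed up in these cells, so its count is not independent evidence of a direction. The induced targets had fewer calls when either control library was left out, as did all genes tested. The target TGFBI, an extracellular matrix protein, was barely expressed, with counts of 2 and 1 in control and 4 and 1 in knockdown libraries, too low to be tested. CCN2 had counts of 18 and 24 against 12 and 19 and was not called (-0.36, SE 0.40, edgeR adjusted p = 0.579). Of 8 genes that TGF-beta is known to repress, MYC rose by 0.59 (edgeR adjusted p = 0.0392) and ID1, a dominant-negative helix-loop-helix protein, by 0.44 (adjusted p = 0.0488), and none was called lower. This is 25.0% called, beside 16.1% over all genes, in a list of few genes. When either control library was left out, the repressed targets had fewer calls, as did all genes tested.

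**Figure D4:**
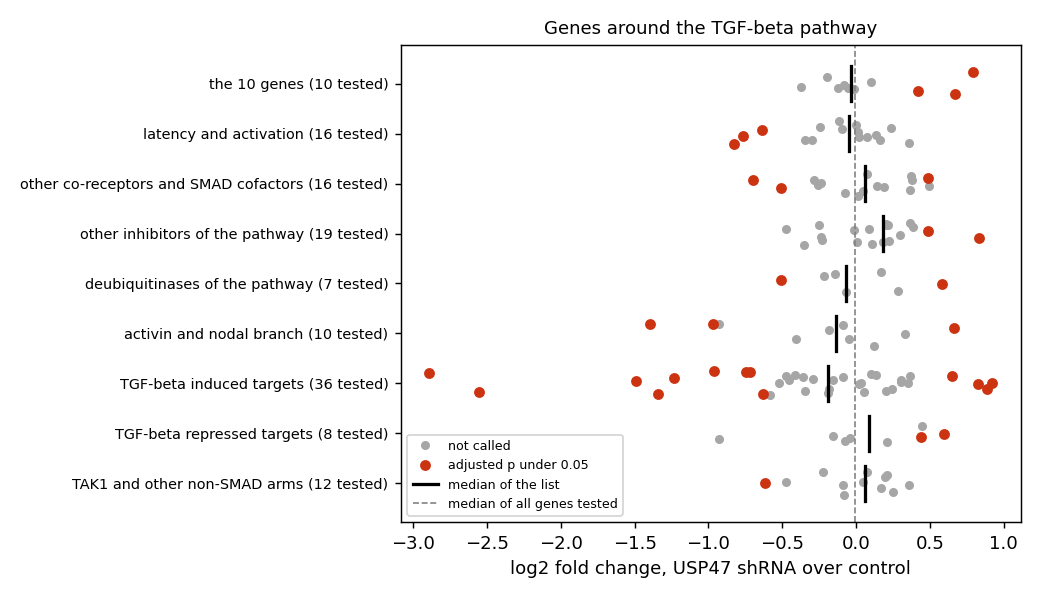
The log2 fold change of USP47 shRNA over control shRNA (horizontal axis) is plotted for every tested gene of each list, in red where the edgeR adjusted p was under 0.05, with a bar at the median of each list and a dashed line at the median of all genes tested. The 36 induced targets spread from -2.89 to 0.92, and the tested inhibitors have their median at 0.18.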

How the data were processed

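RNA-Seq of HGC-27 cells, 2 control shRNA and 2 USP47 shRNA libraries grouped by the submitters' labels, was analysed from the deposited read counts per gene, which the authors did not normalize. The TPM and FPKM columns, which the authors derived from these counts, were used for levels and ratios (TPM) and to recover the gene length the authors used (FPKM). Per the methods, bases below a quality score of 20 were trimmed, reads were mapped to hg19 with STAR 2.7.5c, and duplicates were removed with SAMtools 1.9, which lowers the counts of abundant genes most. The submitters' processing notes also list featureCounts and Picard 2.23.3 with no role. The gene annotation and strand setting of the counting are not given in the sources used here. The labels name a stranded kit and the methods another kit, and the methods speak of triplicate samples where the files hold 2 per group.

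Counts were tested with edgeR 4.0.16 in R 4.3.3 (TMM, filterByExpr, robust quasi-likelihood fit, both directions), with Benjamini-Hochberg adjustment over 21932 genes and a threshold of 0.05. Each standard error was obtained from the F statistic as |log2 fold change| over its root. Symbols matched 55665 of 63568 identifiers. Gene positions and overlaps come from GENCODE release 44 lifted to hg19. All 10 promoter windows were matched by sequence to hg19, with the start site at that of the canonical transcript. The 10 genes and the lists were chosen with earlier results of these data known. Named besides the 10 genes were USP47, 10 pathway genes whatever their change (1 of which is not reported here), and up to 3 genes called higher and 3 called lower with the smallest p from each list. TMEM91, MTCO2P2 and the other overlapping genes are named for their position. Alternatives were DESeq2 1.42.0 size factors and Wald test, library size alone, no filter or at least 10 counts in every library, the legacy quasi-likelihood fit, a replicate block, leaving out each library, and CPM per annotated exon length. The fit was tested on simulated data.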

Additional observations from a re-analysis of the deposited data

How the results depend on the processing

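With 2 libraries per group, leaving out either control library left fewer calls over all genes and among the 10 genes. The log2 fold changes of TGFB3, TGFBR1, SMAD7, TGFB2, SMAD2 and SKIL kept their sign in all 11 alternatives. TGFBR2, at 8 to 13 reads per library, could not resolve a change, and with at least 10 counts in every library it was not tested. Over all genes, 3527 were called. The Wald test called 2293, a fit with the replicate block 7419, and fits without 1 library 1233 to 7272. The cause of each move was not tested.

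The replicate numbers share no stated batch, and deviations of same-numbered libraries correlated at 0.213 across genes, so the block is named with its values here only. It is nevertheless among the alternative settings counted in the results, and TGFB3, TGFBR1 and SMAD7 passed in it. With the replicate block, 1 of the 10 genes was called lower (TGFB2, -0.38, adjusted p = 0.00872), and the lists had 6 calls for latency and activation, 8 for cofactors, 7 for inhibitors, 5 for activin and nodal, 20 for induced targets and 3 for non-SMAD arms. With library size alone, 1 of the 10 genes was called higher, TGFBR1 (0.35, adjusted p = 0.122) and SMAD7 (0.73, adjusted p = 0.0563) lost their calls, and inhibitors and repressed targets had 1 call each and the non-SMAD arms 2. Without a filter on low counts TGFBR1 lost its call (0.39, adjusted p = 0.0938), and the same 3 lists had 1, 1 and 2 calls. With at least 10 counts in every library TGFBR1 stood at 0.40 (adjusted p = 0.0524), and repressed targets had 1 call and non-SMAD arms 2, as non-SMAD arms also had in the Wald test. TGFBR2 turned to 0.00135 with DESeq2 size factors and 0.00198 in the Wald test. Per annotated exon length, SMAD3 ranked 2, TGFB3 3, TGFBR1 4 and SMAD2 5 in control.

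Leaving out 1 library in turn, 0 to 3 of the 10 genes were called higher and 0 to 2 lower. The log2 fold changes ranged from -0.29 to 0.12 (TGFB1), -0.50 to -0.25 (TGFB2), 0.59 to 0.76 (TGFB3), 0.34 to 0.49 (TGFBR1), -0.42 to 0.48 (TGFBR2), -0.20 to 0.10 (TGFBR3), -0.0286 to 0.23 (SMAD3), 0.55 to 0.99 (SMAD7) and -0.41 to -0.0111 (SKIL). The lists had 1 to 7 calls for latency and activation, 0 to 9 for cofactors, 0 to 8 for inhibitors, 0 to 4 for deubiquitinases, 2 to 4 for activin and nodal, 6 to 18 for induced targets, 0 to 3 for repressed targets and 0 to 6 for non-SMAD arms.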
